A study of Chimonocalamus delicatus with 27 samples.

Results

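The rhizome of Chimonocalamus delicatus, a fragrant woody bamboo, was compared with its stem across all genes measured by RNA-seq. The comparison takes the 3 rhizome libraries and the 3 stem libraries that the labels place in the set of different plant parts, which is 6 of the 27 libraries of the series, and the samples were chosen by those labels alone. Both groups carry no treatment or genotype beyond the library names, and the labels give no age for these stems and do not say whether the libraries came from separate plants. Each p-value therefore sets a difference against library-to-library spread, part or all of which may be technical. The 3 leaf and 3 branch libraries of the same set are quoted as levels only. Libraries are named by organ and replicate number, and values are given in the order 1, 2 and 3.

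A bamboo rhizome is an underground stem with nodes, buds and roots that stores sugars and starch and sends up new shoots, whereas the above-ground stem, or culm, is a green, lignifying axis. Terpenoids, the class to which many plant scents belong, are built from 5-carbon units made by the mevalonate pathway in the cytosol and by a separate pathway in plastids. Prenyl diphosphate synthases join these units, and terpene synthases turn the chains into mono-, sesqui- and diterpenes. The study asked how terpenoid genes differ between parts and culm ages of the plant.

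The summed expected counts per library were 8952093, 8007590 and 8579367 in rhizome and 8260798, 7518659 and 8343063 in stem, and 3 counts correspond to 0.335 to 0.399 CPM. Of 57356 genes in the table, 25814 reached at least 1 FPKM (fragments scaled by transcript length and library size) in at least 3 of the 6 libraries and were tested, and 31542 did not. A gene that is high in a single organ passes that filter through that organ, so counts among tested members of a group describe those members and not the whole group. Gene symbols and descriptions are those the deposited table took from similar genes of other species, and closely related family members can share reads, which the counting may have split between them.

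The tissue labels were set against marker genes. The 27 genes of green aerial tissue summed to 47, 31.7 and 60.8 FPKM in rhizome and to 3260, 2019 and 911 FPKM in stem, and 10 of them were at 0 in all 3 rhizome libraries. Their sum in leaf was 10054 to 12565 FPKM. The 29 genes chosen to mark root and endodermis summed to 103, 31.2 and 177 FPKM in rhizome and to 202, 234 and 420 FPKM in stem. Of these, 14 were at 0 in all rhizome libraries and 19 in all stem libraries, and their sum in branch was 150 to 256 FPKM. Genes of secondary wall formation, 129 in all, summed to 550, 1099 and 176 FPKM in rhizome and to 351, 311 and 709 FPKM in stem, and the 69 genes of dividing cells to 114 to 168 FPKM and 101 to 103 FPKM. Rhizome RNA was thus nearly free of green-tissue transcripts. The genes chosen for root and endodermis were higher in above-ground stem than in rhizome and so did not mark root here. The root content of the rhizome samples cannot be told from them. In bulk samples such as these, fewer cells of a type and less RNA per cell cannot be told apart. The part played by these cell types in any other difference was not tested.

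The 3 rhizome libraries were not alike. Rhizome 2 and rhizome 3 correlated at r = 0.706 over the tested genes (Pearson's r of log2(FPKM + 1), across genes, which are not independent replicates), below the 0.730 to 0.773 between rhizome 3 and the stem libraries. Rhizome 2 correlated with the stem libraries at 0.615 to 0.637, below its 0.706 with rhizome 3. Rhizome 1 correlated at 0.883 with rhizome 2 and at 0.919 with rhizome 3. Stem libraries correlated at 0.894 to 0.936, branch libraries at 0.927 to 0.956 and leaf libraries at 0.972 to 0.976. The biological coefficient of variation was 56.2% in rhizome, 36.5% in stem, 28.4% in branch and 17.1% in leaf.

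**Figure D1:**
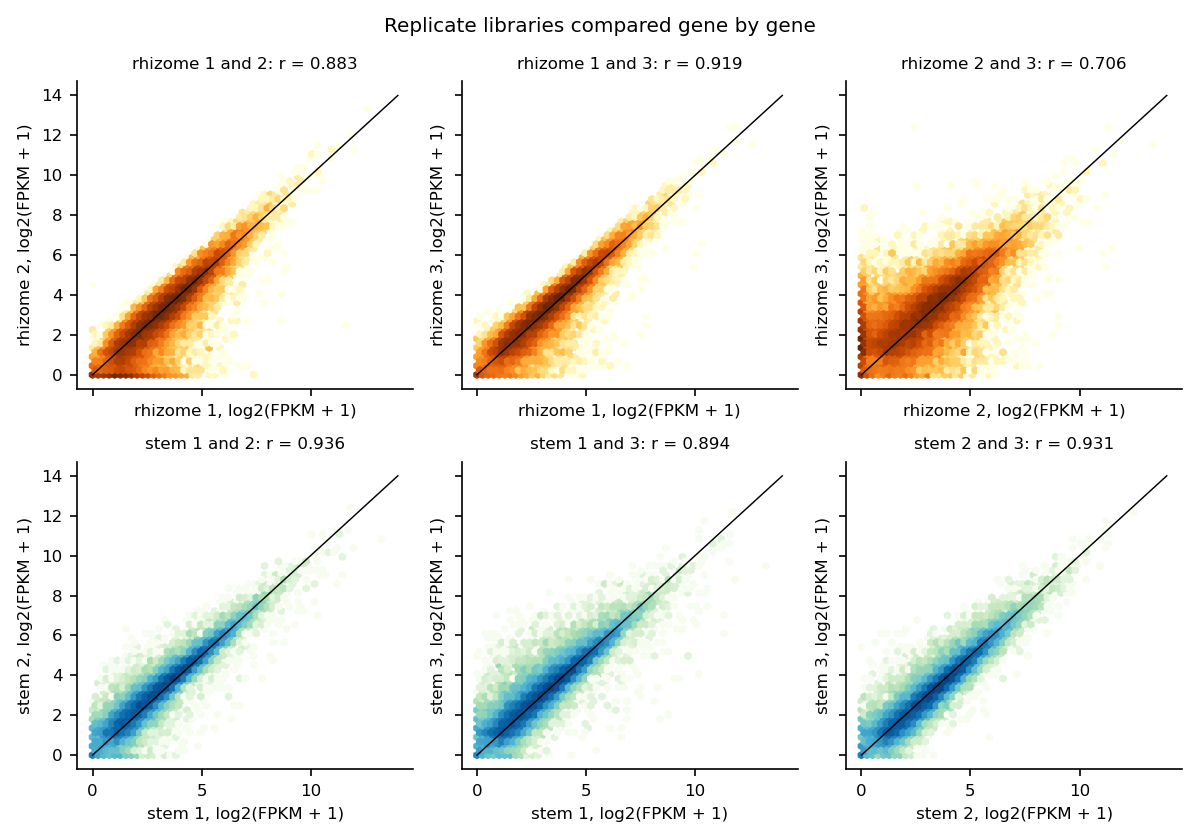
Every pair of rhizome libraries (top) and of stem libraries (bottom), with log2(FPKM + 1) of the tested genes on both axes, darker cells holding more genes and Pearson's r in each title. The widest cloud is rhizome 2 against rhizome 3 (r = 0.706), and the pairs with rhizome 1 are narrower (0.883 and 0.919).

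Rhizome 1 lay between the other two. Among the 18527 genes with at least 5 FPKM in a rhizome library, its value fell between those of rhizome 2 and 3 for 79.8%, while the corresponding share was 8.98% to 40.3% for every other library of the 4 organs. It was more than 2-fold above both others for 9 genes and below both for 4, against 625 and 2567 genes for rhizome 2 and 252 and 1418 for rhizome 3. A sum of 0.49 times the counts of rhizome 2 and 0.59 times those of rhizome 3 gave the counts of rhizome 1 with r = 0.987 over 23415 genes and missed by more than 2-fold for 0.568% of them. The median squared deviation, in units of counting error, was 0.944 for rhizome 1, compared with 0.455 for counting error alone and 1.71 to 8.16 for the 11 other libraries predicted in the same way. Whether it is independent of rhizome 2 and 3 cannot be told from the files, and results are given with and without it. Where 2 adjusted p-values follow each other, the first is from all 6 libraries and the second from the 5 without rhizome 1.

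Between rhizome 2 and 3, 3167 tested genes (12.3%) differed by more than 4-fold in FPKM + 1, with 1132 higher in rhizome 2 and 2035 higher in rhizome 3. Of these 3167, 196 were called between rhizome and stem, beside 3924 of all 25814 tested genes (15.2%). They were picked for a wide spread within rhizome, which by itself makes a call less likely. The contrast between rhizome 2 and 3 had named members. Granule-bound starch synthase I (WAXY, PH02Gene13019), which makes amylose, was at 3206, 4.53 and 5859 FPKM in rhizome and at 3505, 5811 and 4846 FPKM in stem. Rhizome 2 was almost without this transcript, which ranked first among all genes in stem by mean FPKM. Phenylalanine ammonia-lyase (PAL, PH02Gene27016), the entry enzyme of phenylpropanoid synthesis, was at 1210, 2855 and 86.4 FPKM in rhizome and 190, 65.1 and 192 FPKM in stem. Summed over gene lists, rhizome 2 exceeded rhizome 3 by 3.66 times for laccases, 3.57 times for lignin synthesis and 3.53 times for cuticle and wax genes. It had 0.341 times the level of rhizome 3 for late embryogenesis and dehydrin genes and 0.505 times for the plastid isoprenoid pathway.

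With all 6 libraries, 3924 genes (15.2% of those tested) differed between rhizome and stem at an adjusted p below 0.05, of which 1787 (6.92%) were higher and 2137 (8.28%) lower in rhizome. The median log2 change over all tested genes was 0.02. Of the called genes, 3922 had no overlap between the organs. Non-overlapping values alone were found for 21.7% of tested genes on the higher and 19.6% on the lower side, so they carry little weight by themselves. In 652 genes (2.53%) every rhizome library was at least 2-fold above every stem library in FPKM + 1, and in 1178 (4.56%) at least 2-fold below. Without rhizome 1, 109 genes (0.422%) were called, 21 higher (0.0814%) and 88 lower (0.341%), and all 3924 kept their sign. Those 109 were also called with any other library left out, and the other 3815 called genes lost the call with at least 1 library left out. The stem libraries mattered as well. Without stem 1, 2.24% of tested genes were called higher and 4.54% lower, without stem 2, 0.608% and 1.73%, and without stem 3, 1.71% and 3.56%. Without rhizome 2 the shares were 7.65% and 9.48%, and without rhizome 3 they were 9.82% and 8.17%, so that higher calls then outnumbered lower ones. At an unadjusted p below 0.05, 17.4% of tested genes were higher and 16.6% lower, and 11.7% and 10.9% without rhizome 1. DESeq2, at its own adjusted p below 0.05, called 13% higher and 14.1% lower. The counts for gene lists below are to be read against these shares. A fit over the 11 plant part libraries without rhizome 1, chosen after the data had been seen, called 5391 genes (20.9%).

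**Figure D2:**
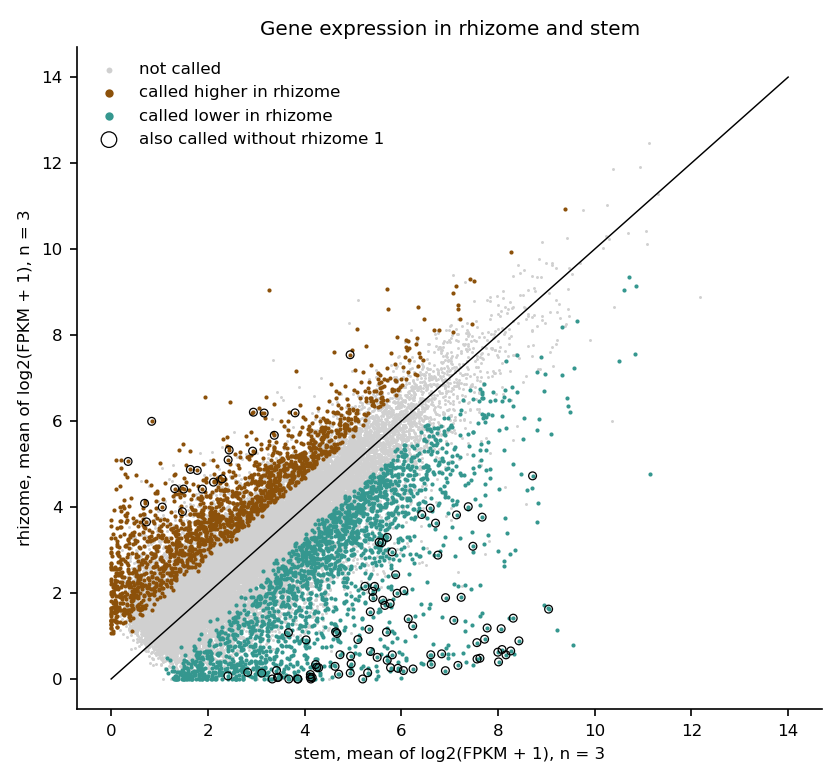
Mean log2(FPKM + 1) of 3 stem libraries (x axis) and 3 rhizome libraries (y axis) for each tested gene, with genes higher and lower in rhizome coloured and circles around those also called without rhizome 1. Of the 109 circled genes, 88 lie below the diagonal, many of them near the bottom edge.

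The counts by gene list were uneven. Tested members of carbon fixation, light harvesting and terpene synthases were called lower far more often than the 8.28% of all genes, and calls among ribosomal proteins were almost all on the higher side. Most of the 44 lists held calls in both directions.

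**Figure D3:**
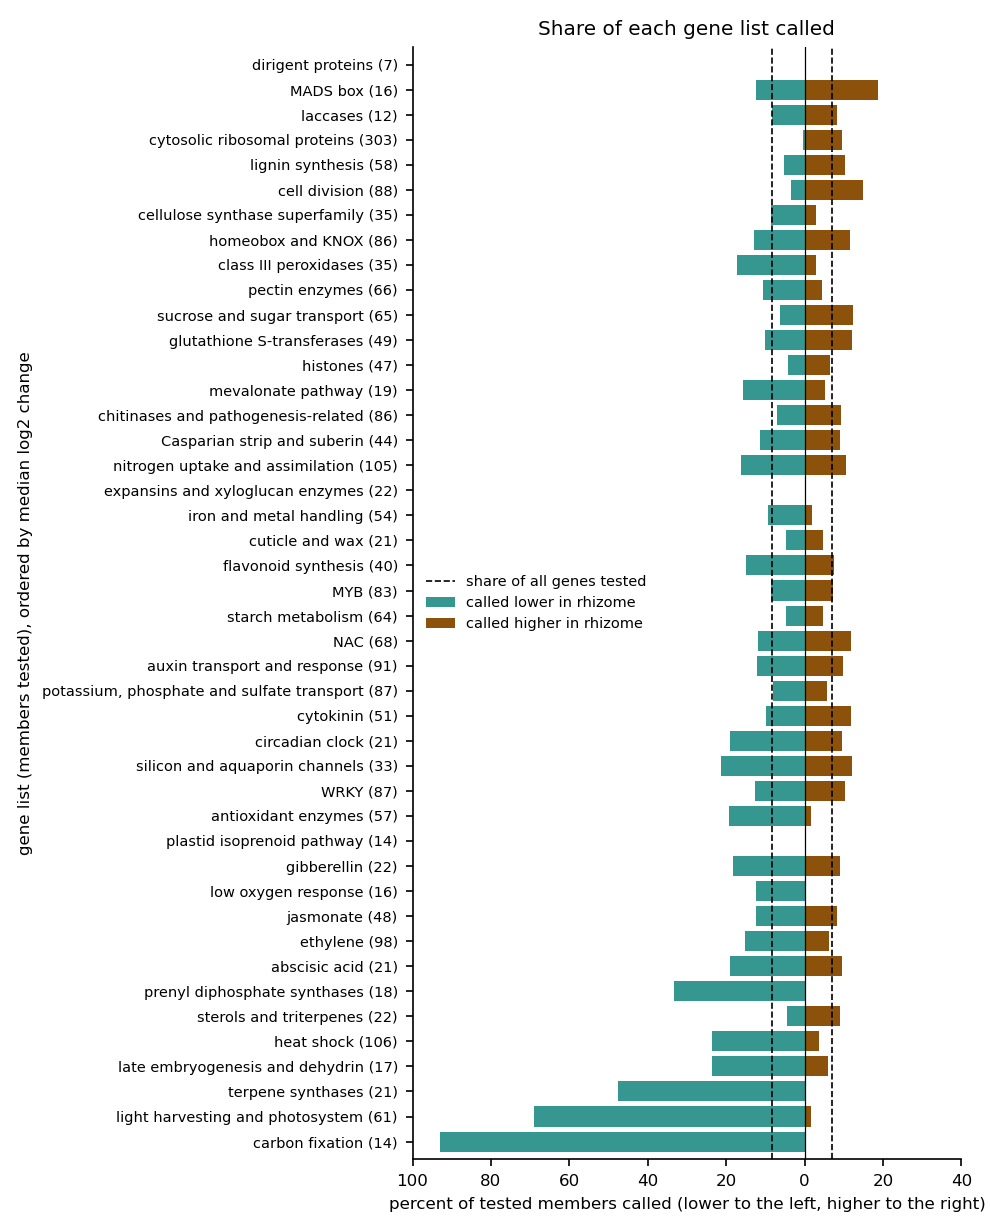
Percent of tested members called lower (left) and higher (right) in rhizome for each of the 44 gene lists, with dashed lines at the share of all tested genes, 8.28% lower and 6.92% higher. Carbon fixation, light harvesting and terpene synthases reach farthest to the left, and no list reaches as far to the right.

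Photosynthesis genes held the widest gap between the organs. Of 83 light harvesting and photosystem genes, 61 were tested, 42 were called lower and 1 higher (8.28% and 6.92% of all genes), with a median log2 change of -5.13 among those tested. Their summed level was 238, 308 and 211 FPKM in rhizome and 8480, 5980 and 2999 FPKM in stem. Branch, at 4269 ± 1001 FPKM (SD, n = 3), was near the stem level, and leaf was at 25800 ± 3109 FPKM (SD, n = 3). Without rhizome 1, 8 of these genes were called, all lower (0.341% of all genes), and without stem 2, 19 were called lower (1.73%).

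CAB7 (PH02Gene17893), a chlorophyll a/b binding antenna protein, was at 0.406, 0.53 and 0.494 FPKM in rhizome and 414, 314 and 180 FPKM in stem. All rhizome libraries were near the detection limit and far below every stem library, a log2 change of -9.34 (SE 0.51, adjusted p = 0.00236 and 0.038). CAB8 (PH02Gene45771), another antenna protein, stood at 0.464, 2.94 and 0.887 FPKM against 884, 754 and 315 FPKM, a log2 change of -8.83 (SE 0.97, adjusted p = 0.00675 and 0.0515). Its level in leaf was 3195 ± 375 FPKM (SD, n = 3). PSAL (PH02Gene22520), a photosystem I subunit, fell from 378, 270 and 161 FPKM in stem to 0.22, 1.23 and 0.345 FPKM in rhizome (log2 change -8.84, SE 0.78, adjusted p = 0.0041 and 0.0424). Early light-inducible protein ELIP1 (PH02Gene20320), which binds pigments in plastids under light stress, was at 2.17, 1.23 and 3.15 FPKM against 407, 732 and 493 FPKM. Neither organ varied by more than a few-fold, and the log2 change was -7.99 (SE 0.44, adjusted p = 0.00236 and 0.038). PSBS2 (PH02Gene34222), which in Arabidopsis is needed to shed excess light energy, was at 0, 0.821 and 0.255 FPKM in rhizome and 432, 335 and 117 FPKM in stem (log2 change -9.70, SE 1.12, adjusted p = 0.00733 and 0.0493). The single rise in the list was a gene described as a chlorophyll a/b binding family protein, At4g08330 (PH02Gene19244), at 24.3, 11.9 and 28.4 FPKM in rhizome and 6.19, 5.86 and 1.69 FPKM in stem (log2 change 2.16, SE 0.55, adjusted p = 0.0463 and 0.155).

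Carbon fixation followed the same pattern. Of 19 genes, 14 were tested and 13 were called lower, 0 higher, with a median log2 change of -7.19, and 7 were called lower without rhizome 1. With any other library left out, 12 to 14 were called lower. The list summed to 9.78, 16.4 and 11.4 FPKM in rhizome, 1213, 1088 and 742 FPKM in stem, 828 ± 57.5 FPKM in branch and 10954 ± 849 FPKM in leaf (SD, n = 3 each). GAPB (PH02Gene00850), a subunit of the chloroplast glyceraldehyde-3-phosphate dehydrogenase of the Calvin cycle, was at 0.119, 0.533 and 0.124 FPKM in rhizome and 150, 170 and 115 FPKM in stem. All rhizome values were below 1 FPKM, and the log2 change was -9.13 (SE 0.64, adjusted p = 0.00285 and 0.0382). Rubisco activase (RCA, PH02Gene23790), which keeps the CO2-fixing enzyme active, was at 1.77, 3.95 and 0.762 FPKM against 259, 215 and 152 FPKM. No library of the organs overlapped (log2 change -6.60, SE 0.72, adjusted p = 0.00673 and 0.0611). One chloroplast fructose-1,6-bisphosphatase gene (PH02Gene00223) had no count in any rhizome library and stood at 15.3, 17.2 and 9.34 FPKM in stem (adjusted p = 0.00523 and 0.0409).

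Terpene synthases were lower in rhizome wherever they were called. Of 89 genes, 21 were tested, 10 were called lower and 0 higher (8.28% and 6.92% of all genes), the median log2 change among those tested was -2.49, and in 7 every rhizome library was at least 2-fold below every stem library (4.56% of all genes). Their summed level was 127, 143 and 104 FPKM in rhizome and 198, 526 and 898 FPKM in stem, with no overlap but a wide spread in stem. Without rhizome 1 edgeR called 0 terpene synthases, with 10 lower and 0 higher at an unadjusted p below 0.05 (10.9% and 11.7% of all genes) and a median of -2.36. Without stem 2 or without stem 3 it called 2 lower (1.73% and 3.56%), while DESeq2 called 11 lower with all 6 libraries (14.1%). Leaf and branch summed to 339 ± 128 and 320 ± 160 FPKM (SD, n = 3).

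Genes described as geraniol or terpineol synthases, which make monoterpene alcohols in other plants, stood out by their values. These product groups were made after the values had been seen. The 12 members summed to 8.72, 0.993 and 10.9 FPKM in rhizome and 70.9, 304 and 310 FPKM in stem, and all 5 that were tested were called lower. TPS10 (MSTRG.47308), described as a geraniol synthase, was the most abundant member at 6.36, 0.1 and 9.85 FPKM in rhizome and 56.5, 221 and 233 FPKM in stem. Stem 1 was lower than the other stem libraries yet above every rhizome library, and the log2 change was -5.04 (SE 1.20, adjusted p = 0.039 and 0.152). Another TPS10 gene (MSTRG.17598), described as an alpha-terpineol synthase, was at 0.294, 0 and 0.461 FPKM against 5.1, 38.7 and 38.1 FPKM (log2 change -6.66, SE 1.09, adjusted p = 0.0153 and 0.0902). STPS (PH02Gene50979) is described instead as a germacrene D synthase and is counted with that group below. It had 0, 0.28 and 0 FPKM in rhizome and 10.4, 20.5 and 19 FPKM in stem (log2 change -7.11, SE 0.87, adjusted p = 0.00805 and 0.064).

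Germacrene D synthases, which make a cyclic sesquiterpene, were present in both underground and above-ground axes. The 18 genes summed to 56.6, 49.5 and 63.4 FPKM in rhizome and 114, 196 and 259 FPKM in stem, and to 0.641 to 2.48 FPKM in leaf. Of 9 tested, 4 were called lower and 0 higher. TPS2 (MSTRG.59063), the most abundant of them in rhizome, was at 24.4, 27 and 19.3 FPKM in rhizome and 38.7, 65.5 and 76 FPKM in stem (log2 change -1.37, SE 0.33, adjusted p = 0.0391 and 0.154). TPS2 (PH02Gene40249) was at 7.35, 10.3 and 8.99 FPKM against 30.4, 44.2 and 69.6 FPKM. The rhizome values were close to each other and below all stem values (log2 change -2.46, SE 0.36, adjusted p = 0.0121 and 0.0806).

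The 16 genes described as nerolidol or cadinene synthases, or carrying the symbol TPS7 with a clone name, did not separate the organs. They summed to 55.4, 90.8 and 18.1 FPKM in rhizome and to 2.38, 7.15 and 285 FPKM in stem, and 0 of 5 tested were called by edgeR or DESeq2, and 0 had an unadjusted p below 0.05. Single libraries carried these sums. TPS7 (PH02Gene31673), described as a farnesol and nerolidol synthase, was at 31.7, 65 and 0.164 FPKM in rhizome and at most 0.855 FPKM in stem, so it was high in rhizome 1 and 2 but not in rhizome 3. TPS7 (PH02Gene37084), with the same description, was at 12.2, 23.1 and 0 FPKM in rhizome and at 0 in every stem library. Both reached 1 FPKM in 2 libraries and were not tested. A further TPS7 gene (PH02Gene09155) ran the other way, at 5.09, 0.074 and 5.6 FPKM in rhizome and 0.209, 2.25 and 64 FPKM in stem, with overlapping organs (log2 change -2.73, SE 1.89, adjusted p = 0.353). Its level in leaf was 119 ± 54.9 FPKM (SD, n = 3).

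**Figure D4:**
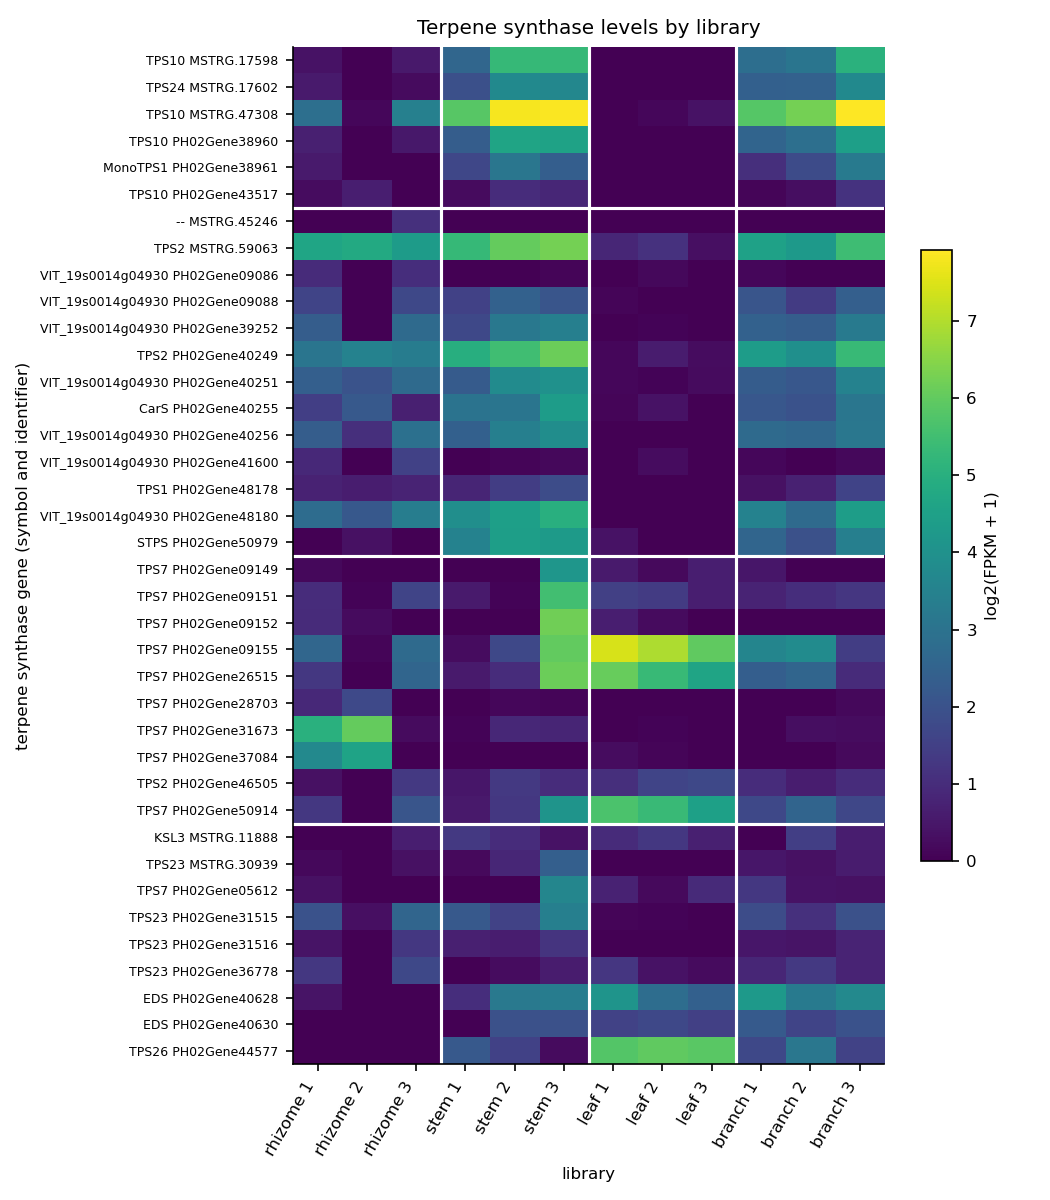
Log2(FPKM + 1) of the 38 terpene synthase genes with at least 1 FPKM in a rhizome or stem library (rows) in the 12 plant part libraries (columns), with white lines between product groups: geraniol or terpineol, germacrene D, nerolidol or cadinene or TPS7, and other. The uppermost block is dark in rhizome and bright in stem, the germacrene D block is nearly empty in leaf, and the third block changes from library to library within rhizome and stem.

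Upstream of the terpene synthases, the prenyl diphosphate synthases were called in a single direction. Of 43 genes, 18 were tested, 6 were called lower and 0 higher. Without rhizome 1 edgeR called none, with 6 lower and 1 higher at an unadjusted p below 0.05 (10.9% and 11.7% of all genes), and 2 were called lower without any 1 of the stem libraries. FPS (PH02Gene06534), a farnesyl diphosphate synthase whose product feeds sesquiterpenes and sterols, was at 63.1, 65.9 and 58.7 FPKM in rhizome and 211, 166 and 265 FPKM in stem. Rhizome values lay within a narrow band below all stem values (log2 change -1.82, SE 0.27, adjusted p = 0.0121 and 0.0869). Geranylgeranyl diphosphate synthase (GGPS, PH02Gene17903), which supplies diterpenes, carotenoids and chlorophyll, was at 6.24, 7.18 and 6.38 FPKM against 25.2, 44.6 and 41 FPKM (log2 change -2.51, SE 0.27, adjusted p = 0.00634 and 0.0611).

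The pathways that make the 5-carbon units showed no shared direction, with 4 of 19 tested mevalonate genes and 0 of 14 plastid genes called, beside 15.2% of all genes. In the plastid pathway, edgeR called 0 of 14 tested genes, with 3 lower and 0 higher at an unadjusted p below 0.05 (16.6% and 17.4% of all genes), and DESeq2 called 2 lower (14.1% of all genes). The median log2 change was -0.41. Its entry enzyme DXS (TKT2, PH02Gene29284) was at 42.8, 41.6 and 42 FPKM in rhizome and 53.6, 46.6 and 36.2 FPKM in stem, a log2 change of -0.16 (SE 0.21, adjusted p = 0.641). DXR (PH02Gene19646), the next enzyme, was at 29.9, 29.5 and 28.7 FPKM against 26, 48.5 and 48.7 FPKM (log2 change -0.51, SE 0.26, adjusted p = 0.213). Both pairs of groups overlapped.

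In the mevalonate pathway, 1 of 19 tested genes was called higher and 3 lower (6.92% and 8.28% of all genes). Without rhizome 1, edgeR called none, with 1 higher and 3 lower at an unadjusted p below 0.05. HMG-CoA reductase (HMGR, PH02Gene12621), the main control point of the pathway in many plants, was at 11.7, 9.06 and 14.4 FPKM in rhizome and 2.8, 5.34 and 5.56 FPKM in stem. It rose without overlap, with a log2 change of 1.31 (SE 0.31, adjusted p = 0.039 and 0.143). The other tested genes of this enzyme were not called and went both ways. HMG3 (PH02Gene04633) had a log2 change of 1.25. The HMGR genes PH02Gene07047 and PH02Gene25183 and HMG1 (PH02Gene16789) had -1.29, -1.20 and -1.03. A cytosolic acetyl-CoA acetyltransferase gene (At5g47720, PH02Gene19660), of the opening step, was at 2.24, 2.8 and 2.15 FPKM against 12.1, 19.6 and 18.5 FPKM (log2 change -2.82, SE 0.32, adjusted p = 0.00721 and 0.0649). The more abundant AAT1 (PH02Gene24433) of the same step was at 64.9, 79.6 and 56.7 FPKM and 31.3, 44.2 and 52.3 FPKM, which did not pass the test (log2 change 0.63, SE 0.27, adjusted p = 0.157). The isomerase gene IPI1 (PH02Gene44781), whose enzyme interconverts the 2 kinds of 5-carbon unit, was at 169, 268 and 83.2 FPKM in rhizome and 63.3, 58.2 and 44 FPKM in stem. All rhizome values exceeded all stem values, but the adjusted p was 0.0626 at a log2 change of 1.64 (SE 0.47).

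Among sterol and triterpene genes, 2 of 22 tested were called higher and 1 lower. Smt1-1 (MSTRG.2916), a sterol C-24 methyltransferase, was at 55.6, 30.7 and 79.7 FPKM in rhizome and 13, 7.74 and 7.58 FPKM in stem (log2 change 2.46, SE 0.41, adjusted p = 0.0162 and 0.0848).

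Sucrose synthases and invertases were among the genes that rose in rhizome. The 174 genes of sucrose metabolism and sugar transport summed to 2341, 2364 and 2397 FPKM in rhizome and 1156, 1363 and 1431 FPKM in stem. Of 65 tested, 8 were called higher and 4 lower (6.92% and 8.28% of all genes). Without rhizome 1 edgeR called none, with 10 higher and 5 lower at an unadjusted p below 0.05, about the share of all genes (11.7% and 10.9%), and without stem 2 it called 3 higher (0.608%). Sucrose synthase SUS1 (PH02Gene04423), which cleaves sucrose for starch and cell wall synthesis, was at 965, 1070 and 901 FPKM in rhizome and 223, 348 and 369 FPKM in stem. The rhizome libraries were alike and each more than 2-fold above each stem library (log2 change 1.61, SE 0.34, adjusted p = 0.0287 and 0.13). Its level in leaf was 8.05 ± 8.08 FPKM (SD, n = 3). SUS2 (PH02Gene09591), a second sucrose synthase, was at 280, 345 and 232 FPKM against 37.4, 28.8 and 33.4 FPKM (log2 change 3.07, SE 0.32, adjusted p = 0.00617 and 0.0523).

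Both called invertase genes of the cell wall type, whose enzymes split sucrose outside the cell, were nearly absent from stem. CIN2 (PH02Gene16852) was at 28.7, 5.46 and 50 FPKM in rhizome and 0, 0 and 0.215 FPKM in stem (log2 change 8.35, SE 1.28, adjusted p = 0.0131 and 0.0737). CIN2 (PH02Gene16855) was at 5.71, 5.21 and 9.69 FPKM in rhizome and had no count in stem, which makes it at least 37.5-fold higher, taking 3 counts over the stem group as the floor (adjusted p = 0.013 and 0.0808). In the other direction, SWEET13 (PH02Gene21722), a sucrose exporter in maize and rice, was at 1.15, 1.21 and 0.333 FPKM in rhizome and 9.55, 7 and 14.2 FPKM in stem (log2 change -3.54, SE 0.60, adjusted p = 0.0165 and 0.0891). A sucrose-phosphate synthase gene (SPS, PH02Gene05747) had no count in rhizome and was at 5.13, 4.09 and 1.94 FPKM in stem, at least 97.4-fold lower (adjusted p = 0.0115 and 0.0611), whereas SPS5 (PH02Gene30638) was at 30, 51.1 and 21.4 FPKM against 4.24, 8.39 and 8.72 FPKM (log2 change 2.26, SE 0.45, adjusted p = 0.0252 and 0.0918).

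Starch genes were among the most abundant transcripts of both organs. The 115 genes summed to 18812, 22096 and 16296 FPKM in rhizome and 10400, 13920 and 15134 FPKM in stem, compared with 7785 ± 1318 FPKM in branch and 1428 ± 62.1 FPKM in leaf (SD, n = 3). Of 64 tested, 3 were called higher and 3 lower. Starch branching enzyme SBE1 (PH02Gene29455), the gene of highest mean FPKM in rhizome, was at 6268, 10714 and 2699 FPKM in rhizome and 1500, 2271 and 3237 FPKM in stem. Rhizome 3 lay below stem 3, and the difference did not pass the test (log2 change 1.49, SE 0.71, adjusted p = 0.192).

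Beta-amylases, which release maltose from starch, went both ways. BMY1 (PH02Gene08694) was at 987, 2220 and 65.3 FPKM in rhizome and 7.27, 9.93 and 8.95 FPKM in stem. Rhizome 3 was far below rhizome 1 and 2 but above every stem library (log2 change 7.0, SE 1.34, adjusted p = 0.0226 and 0.089). BAMY1 (PH02Gene24011), described as chloroplastic, was at 4.55, 0.332 and 9.57 FPKM in rhizome and 173, 279 and 105 FPKM in stem (log2 change -5.35, SE 1.05, adjusted p = 0.0239 and 0.12). BAMY2 (PH02Gene11050), also described as chloroplastic, was at 10, 2.45 and 16 FPKM against 117, 109 and 120 FPKM (log2 change -3.70, SE 0.61, adjusted p = 0.0157 and 0.0902).

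Of 303 tested genes in the ribosomal protein list, 29 were called higher in rhizome and 1 lower (6.92% and 8.28% of all genes), with a median log2 change of 0.58. The list was drawn up for the cytosolic ribosome, which translates nuclear-encoded messages, but took in 3 genes described as 28S or 39S, sizes of the mitochondrial ribosome in animals. Among the 300 tested genes described as 40S or 60S, 28 were called higher and 1 lower. This count moved widely, to 73 higher without rhizome 3 (9.82% of all genes), 3 without stem 1 (2.24%), 1 without stem 3 (1.71%) and 0 without rhizome 1 or without stem 2. At an unadjusted p below 0.05, edgeR placed 125 higher and 4 lower (17.4% and 16.6% of all genes), and without rhizome 1 it placed 78 and 3 (11.7% and 10.9%), with a median of 0.63. DESeq2 called 73 higher and 4 lower (13% and 14.1%). The 449 genes summed to 21460, 24775 and 19381 FPKM in rhizome and 15740, 13452 and 13560 FPKM in stem, without overlap. RPL13B (PH02Gene17354), of the large subunit, was at 241, 339 and 159 FPKM in rhizome and 73.1, 59.4 and 71.1 FPKM in stem (log2 change 1.83, SE 0.36, adjusted p = 0.0244 and 0.099). The largest rise in the list belonged to a gene of the 39S type, ribosomal protein L46 (PH02Gene28023), at 20.8, 33.2 and 11.4 FPKM against 4.22, 3.95 and 4.87 FPKM (log2 change 2.31, SE 0.47, adjusted p = 0.026 and 0.1). The single fall was a 60S L5 gene (PH02Gene07179) with no count in rhizome and 11, 3.55 and 2.88 FPKM in stem, at least 18.7-fold lower (adjusted p = 0.0385 and 0.115).

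**Figure D5:**
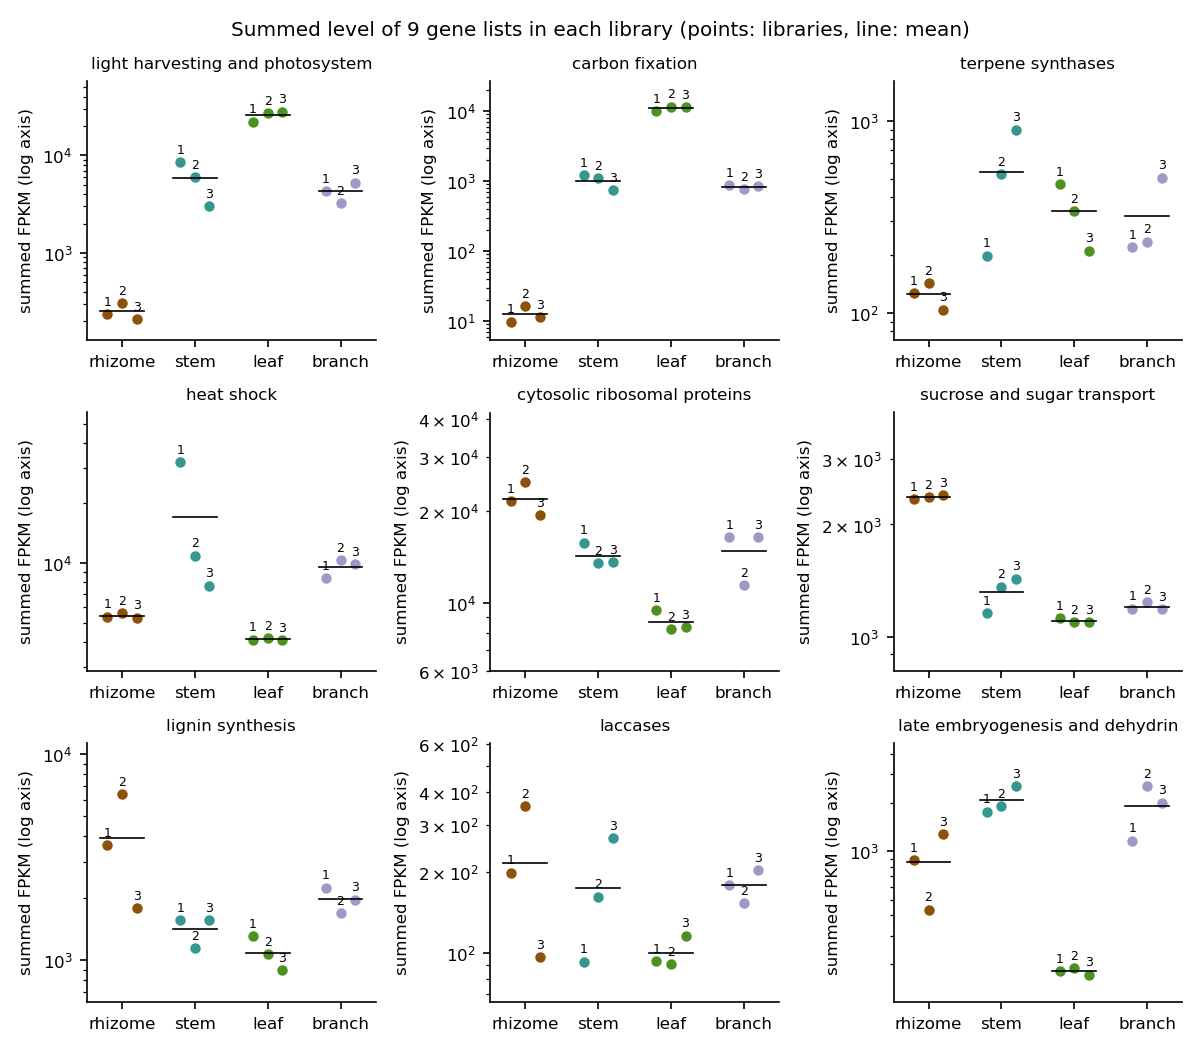
Summed FPKM of the members of 9 gene lists (panels, log axis) in the 12 plant part libraries, each point labelled by its replicate number and each line at the mean of 3 libraries. Rhizome lies below stem without overlap for light harvesting, carbon fixation, terpene synthases and heat shock, and above it for ribosomal proteins and sucrose metabolism.

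Of 88 tested genes of cell division, 13 were called higher and 3 lower (6.92% and 8.28% of all genes). Without rhizome 1 edgeR called none, with 23 higher and 5 lower at an unadjusted p below 0.05 (11.7% and 10.9%), and without rhizome 3 it called 23 higher (9.82%). Those that rose included kinesins, motor proteins that move along microtubules, such as KIN4A (PH02Gene13496) at 32.9, 73 and 7.53 FPKM in rhizome and 4.63, 3.77 and 3.62 FPKM in stem (log2 change 3.25, SE 0.81, adjusted p = 0.0446 and 0.126). KIN14I (PH02Gene20576), of low level, was at 1.66, 1.6 and 2.72 FPKM against 0.271, 0.244 and 0.195 FPKM (log2 change 3.00, SE 0.39, adjusted p = 0.00923 and 0.0637). Genes that fell were the anaphase-promoting complex subunit APC6 (PH02Gene21759), the checkpoint kinase BUB1 (PH02Gene12768) and CDKB2-1 (PH02Gene25184), a cyclin-dependent kinase of mitosis in rice. APC6 was at 0.11, 0.309 and 0.23 FPKM in rhizome and 25.9, 21 and 8.14 FPKM in stem (log2 change -6.41, SE 0.66, adjusted p = 0.00586 and 0.0515). Cyclin CYCB1-2 (PH02Gene05813), the most abundant member, overlapped between the organs at 34.3, 23.2 and 44 FPKM and 37.9, 43.4 and 41.5 FPKM (log2 change -0.34, SE 0.24, adjusted p = 0.361).

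Lignin synthesis, which forms the phenolic polymer of woody walls, was uneven within rhizome. The 101 genes summed to 3617, 6384 and 1787 FPKM in rhizome and 1570, 1145 and 1563 FPKM in stem, and of 58 tested, 6 were called higher and 3 lower, 9 in all against 15.2% of all genes. Without rhizome 3, 16 were called higher (9.82% of all genes), and without rhizome 1 or without stem 2 none. DESeq2 on all 6 libraries called 17 higher and 7 lower (13% and 14.1%). HCT1 (PH02Gene06655), which channels phenylpropanoids to lignin, was at 122, 280 and 13.2 FPKM in rhizome and 7.82, 6.74 and 7.47 FPKM in stem. Rhizome 3 was near the stem level while rhizome 1 and 2 were far above it (log2 change 4.25, SE 1.05, adjusted p = 0.0429 and 0.124). The wide spread of PAL (PH02Gene27016), given above, left it short of the threshold (log2 change 3.22, SE 1.21, adjusted p = 0.117 and 0.231). Laccases, which polymerise lignin units, summed to 199, 353 and 96.4 FPKM in rhizome and 92.8, 162 and 268 FPKM in stem, with 1 of 12 tested called higher and 1 lower. LAC10 (PH02Gene03534), their most abundant member, was at 85.3, 197 and 0.526 FPKM in rhizome and 8.25, 0.06 and 9.74 FPKM in stem (log2 change 3.96, SE 1.96, adjusted p = 0.206).

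Calls among other wall genes are given beside the 6.92% higher and 8.28% lower of all genes. Of 35 tested cellulose synthase superfamily genes, 1 was called higher and 3 lower, of 35 class III peroxidases 1 and 6, of 66 pectin enzymes 3 and 7, and of 44 Casparian strip and suberin genes 4 and 5. edgeR called 0 of 22 expansin and xyloglucan genes and 0 of 7 dirigent genes, with 3 lower and 1 higher, respectively, at an unadjusted p below 0.05 (16.6% and 17.4% of all genes), while DESeq2 called 3 lower and 0. CESA2 (PH02Gene43220), a cellulose synthase subunit, was at 27.3, 22.7 and 28.9 FPKM in rhizome and 104, 90.5 and 76.6 FPKM in stem. Both organs were tight and far apart (log2 change -1.83, SE 0.22, adjusted p = 0.00747 and 0.071). A CASP-like gene (Os06g0656300, PH02Gene22500), of a family named for membrane proteins that in Arabidopsis lay down root diffusion barriers, was at 39.2, 52.5 and 27.3 FPKM against 2.54, 1.2 and 2.79 FPKM (log2 change 4.14, SE 0.49, adjusted p = 0.00747 and 0.0568). Another CASP-like gene (OsI_15195, PH02Gene43735) fell, at 0, 0.764 and 0 FPKM in rhizome and 5.18, 12.6 and 8.06 FPKM in stem (log2 change -4.90, SE 1.05, adjusted p = 0.0301 and 0.127).

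Heat shock genes were called lower more often than higher in rhizome, against a stem group that was itself uneven. Of 221 genes, 106 were tested, 25 were called lower and 4 higher (8.28% and 6.92% of all genes), with a median log2 change of -0.99. The list summed to 5351, 5563 and 5296 FPKM in rhizome and 32264, 10872 and 7685 FPKM in stem, and to 9510 ± 1004 FPKM in branch and 4124 ± 43.9 FPKM in leaf (SD, n = 3). Without rhizome 1, edgeR called 1 higher and 0 lower, with 7 and 30 at an unadjusted p below 0.05 (11.7% and 10.9% of all genes), and without stem 2 it called 5 lower (1.73%). HSP18 (PH02Gene06266), a small heat shock protein that keeps unfolded proteins soluble, was at 34.1, 6.83 and 72.3 FPKM in rhizome and 8859, 1879 and 684 FPKM in stem. Stem 1 was far above stem 2 and 3, and no rhizome library came near any of them (log2 change -6.80, SE 1.42, adjusted p = 0.0278 and 0.131). HSP24.1 (PH02Gene06505), of the mitochondrion, was at 0.459, 0.308 and 0.192 FPKM against 799, 154 and 32.7 FPKM (log2 change -10.04, SE 1.57, adjusted p = 0.0138 and 0.0848).

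Most tested members, 77 of 106, were not called, among them the abundant HSP70 gene PH02Gene35944 at 1879, 2350 and 1605 FPKM in rhizome and 962, 845 and 785 FPKM in stem, without overlap (log2 change 1.14, SE 0.37, adjusted p = 0.0856). The 4 rises were of other members of that list. HSC-I (PH02Gene06078), a heat shock cognate chaperone of the HSP70 family, was at 73.5, 67.3 and 74.8 FPKM in rhizome and 8.08, 6.62 and 9.4 FPKM in stem. The libraries within each organ were nearly equal, and the call held without rhizome 1 (log2 change 3.11, SE 0.23, adjusted p = 0.0029 and 0.0382). The 3 others carried the symbol HSFA1, a heat stress transcription factor, among them PH02Gene21324 at 55.3, 68 and 35.9 FPKM against 12.1, 16.8 and 12.6 FPKM (log2 change 1.92, SE 0.32, adjusted p = 0.0162 and 0.0861).

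Late embryogenesis and dehydrin genes, which protect cells during drying, summed to 884, 434 and 1274 FPKM in rhizome and 1765, 1900 and 2546 FPKM in stem, and of 17 tested, 1 was called higher and 4 lower. The dehydrin COR410 (PH02Gene13412) was at 168, 78.1 and 252 FPKM in rhizome and 767, 737 and 782 FPKM in stem (log2 change -2.28, SE 0.41, adjusted p = 0.0198 and 0.11). Antioxidant enzymes were called lower for 11 and higher for 1 of 57 tested genes. The largest fall was in a chloroplast peroxiredoxin Q gene (PRX1, PH02Gene09585), at 0.097, 0.544 and 0.102 FPKM against 21.6, 29.3 and 16.8 FPKM (log2 change -6.48, SE 0.69, adjusted p = 0.00627 and 0.0545). Catalase CAT2 (PH02Gene05658), the most abundant member, was at 3790, 2503 and 5386 FPKM in rhizome and 1801, 1168 and 1097 FPKM in stem. Its groups did not overlap, but the adjusted p was 0.0808 (log2 change 1.44, SE 0.46).

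Water and silicon channels were called in both directions. Of 33 tested genes, 4 were called higher and 7 lower, and 1 without rhizome 1. PIP2-1 (PH02Gene19725), a plasma membrane water channel, was at 64.8, 95 and 63 FPKM in rhizome and 711, 514 and 1021 FPKM in stem (log2 change -3.37, SE 0.41, adjusted p = 0.00805 and 0.071). PIP1-2 (PH02Gene26718), of the related PIP1 group, ran the other way at 80.1, 92.7 and 77.5 FPKM against 4.72, 12.4 and 13.6 FPKM (log2 change 3.00, SE 0.41, adjusted p = 0.0101 and 0.0649). NIP2-1 (PH02Gene06447), which in rice is the silicon uptake channel Lsi1, was at 1.09, 0 and 2.16 FPKM in rhizome and 26.6, 13.1 and 43.9 FPKM in stem (log2 change -4.77, SE 1.03, adjusted p = 0.0307 and 0.139). LSI2 (PH02Gene10913), named for the rice silicon efflux transporter, was at 32.6, 36.8 and 30.5 FPKM against 67.9, 98.4 and 82 FPKM (log2 change -1.34, SE 0.22, adjusted p = 0.0148 and 0.0992). NIP1-1 (PH02Gene31944), from the same channel subfamily as NIP2-1, was the member called without rhizome 1. It stood at 2.97, 2.58 and 3.88 FPKM in rhizome and 31.9, 49.1 and 45.4 FPKM in stem (log2 change -3.78, SE 0.26, adjusted p = 0.00285 and 0.0409).

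Of 105 tested genes of nitrogen uptake and assimilation, 11 were called higher and 17 lower, and 1 without rhizome 1. That gene, NPF8.3 (PH02Gene02810), of a family that carries nitrate and peptides, was at 2.5, 2.55 and 3.12 FPKM in rhizome and 32.8, 58.2 and 38 FPKM in stem (log2 change -4.01, SE 0.27, adjusted p = 0.00285 and 0.0382). A different NPF8.3 gene (PH02Gene37134) was at 10.9, 4.54 and 14.4 FPKM against 0.054, 0 and 0.372 FPKM (log2 change 5.95, SE 0.99, adjusted p = 0.0159 and 0.0848). NPF4.4 (PH02Gene05193) had no count in rhizome and 3.35, 29.2 and 45.7 FPKM in stem, at least 490-fold lower (adjusted p = 0.025 and 0.0891). For potassium, phosphate and sulfate transport, 5 of 87 tested genes were called higher and 7 lower, the largest fall being a sulfate transporter (SULTR3;1, PH02Gene03554) at 9.18, 16.4 and 5.98 FPKM against 67.8, 164 and 491 FPKM (log2 change -4.52, SE 0.87, adjusted p = 0.0232 and 0.115).

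Among hormone genes, ethylene members were called lower for 15 and higher for 6 of 98 tested. ERF109 (PH02Gene23495), an ethylene-response type transcription factor, was at 2.09, 1.56 and 2 FPKM in rhizome and 29.4, 89.1 and 241 FPKM in stem. Rhizome was even while stem ranged widely (log2 change -6.02, SE 0.86, adjusted p = 0.0115 and 0.0778). EIN2 (PH02Gene09648), the central signal carrier of the ethylene response in Arabidopsis, was at 51.7, 53.7 and 52.6 FPKM in rhizome and 13.6, 14.9 and 13.8 FPKM in stem, a rise without overlap (log2 change 1.86, SE 0.18, adjusted p = 0.00503 and 0.0515).

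Of 21 tested abscisic acid genes, 2 were called higher and 4 lower. NCED3 (PH02Gene32841), the limiting enzyme of abscisic acid synthesis, was at 0.934, 0 and 1.46 FPKM in rhizome and 7.34, 23.7 and 23.3 FPKM in stem (log2 change -4.55, SE 1.04, adjusted p = 0.0354 and 0.145). A second NCED3 gene (PH02Gene40492) overlapped between the organs, at 6.97, 7.87 and 5.22 FPKM in rhizome and 4.85, 21.1 and 17.3 FPKM in stem (log2 change -1.11, SE 0.52, adjusted p = 0.189). The receptor gene PYL5 (PH02Gene16833) was at 35.1, 31.1 and 40.4 FPKM against 104, 137 and 156 FPKM (log2 change -1.94, SE 0.21, adjusted p = 0.00639 and 0.0636). Gibberellin genes were called higher for 2 and lower for 4 of 22 tested. KSL4 (PH02Gene09408), described as an ent-kaurene synthase, had no count in rhizome and 12.9, 23.3 and 7.49 FPKM in stem. It was at least 276-fold lower (adjusted p = 0.00832 and 0.0515). KS1 (PH02Gene01757), also described as an ent-kaurene synthase, was at 24, 23 and 20.5 FPKM in rhizome and 14.9, 15.8 and 14.1 FPKM in stem. Its groups did not overlap, but it was not called (log2 change 0.55, SE 0.18, adjusted p = 0.0829).

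Auxin genes were called higher for 9 and lower for 11 of 91 tested. Auxin response factor ARF1 (PH02Gene22436), a transcription factor, was at 36.9, 43.6 and 30.4 FPKM in rhizome and 4.42, 7.65 and 3.38 FPKM in stem (log2 change 2.83, SE 0.35, adjusted p = 0.00819 and 0.0611). An auxin influx carrier gene (Os11g0169200, PH02Gene46624) was at 0, 0.212 and 0 FPKM against 9.11, 6.47 and 17.2 FPKM (log2 change -7.20, SE 1.05, adjusted p = 0.0121 and 0.0755). Jasmonate genes were called higher for 4 and lower for 6 of 48 tested, and cytokinin genes for 6 and 5 of 51. The cytokinin list took in genes described as response regulator-like that are also in the clock list. Among its lower calls, PRR95 (PH02Gene05139) and PRR73 (PH02Gene18607) are such genes and are counted in both lists. OPR5 (PH02Gene25747), described as a 12-oxophytodienoate reductase, was at 76.6, 2.27 and 155 FPKM in rhizome and 0.229, 0 and 0 FPKM in stem. Rhizome 2 was far below the other rhizome libraries but above all stem values (log2 change 9.61, SE 1.90, adjusted p = 0.0244 and 0.0906). TIFY10A (PH02Gene04428), a repressor of jasmonate signalling, was at 16.7, 6.36 and 28.2 FPKM against 61.8, 184 and 399 FPKM (log2 change -3.73, SE 0.81, adjusted p = 0.0306 and 0.132).

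Transcription factor families were called in both directions, with homeobox genes 10 higher and 11 lower of 86 tested, WRKY 9 and 11 of 87, NAC 8 and 8 of 68, MYB 6 and 7 of 83 and MADS box 3 and 2 of 16. MADS27 (PH02Gene21974) was at 5.43, 5.42 and 5.41 FPKM in rhizome and had no count in any stem, leaf or branch library. Its level in rhizome was the same in all 3 libraries, at least 58.2-fold higher than in stem (adjusted p = 0.00805 and 0.0688). OSH3 (PH02Gene12434), a KNOX gene of the family that maintains meristems, was at 1.44, 2.16 and 0.782 FPKM in rhizome and 12.6, 13.1 and 16.3 FPKM in stem (log2 change -3.27, SE 0.46, adjusted p = 0.0111 and 0.0789). NAC100 (PH02Gene04659) was at 24.7, 33.7 and 22.1 FPKM against 0.794, 0 and 0 FPKM (log2 change 6.54, SE 1.18, adjusted p = 0.0198 and 0.0905). WRKY71 (PH02Gene30731), the most abundant WRKY gene, was at 62.3, 91 and 49.8 FPKM in rhizome and 243, 565 and 702 FPKM in stem (log2 change -2.90, SE 0.49, adjusted p = 0.0165 and 0.0977). The clock-related factor RVE6 (PH02Gene01476), 1 of the 21 genes that remained higher without rhizome 1, was at 17.3, 21.7 and 22.5 FPKM against 1.33, 2.23 and 2 FPKM (log2 change 3.45, SE 0.31, adjusted p = 0.00428 and 0.0417).

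Outside the lists already described, several of the largest changes in mean level belonged to enzymes of detoxification and secondary metabolism. GSTF1 (PH02Gene33265), a glutathione S-transferase that conjugates reactive compounds, was at 66.3, 59.1 and 62.9 FPKM in rhizome and 0.398, 0.874 and 1.18 FPKM in stem. Each organ was even, and the rise held without rhizome 1 (log2 change 6.20, SE 0.39, adjusted p = 0.0028 and 0.038). CYP709B2 (PH02Gene07726), a cytochrome P450, was at 36.9, 18 and 50.5 FPKM against 0.41, 0.375 and 0.068 FPKM (log2 change 6.84, SE 0.65, adjusted p = 0.005 and 0.0438). It was also present in leaf, at 13.3 ± 3.22 FPKM (SD, n = 3). A copper amine oxidase gene (maoI, PH02Gene04032), of enzymes that oxidise amines to aldehydes, was at 92, 126 and 68.9 FPKM against 1.2, 6.01 and 2.68 FPKM (log2 change 4.88, SE 0.64, adjusted p = 0.00923 and 0.0611).

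On the lower side, a gene described as a flavonoid O-methyltransferase (Os11g0303600, PH02Gene44840) showed the largest fall in mean log2(FPKM + 1) of the described genes. It was at 0.608, 1.36 and 0.396 FPKM in rhizome and 373, 839 and 1355 FPKM in stem, and at 517 ± 437 FPKM in branch (SD, n = 3). The stem values spread widely, all far above rhizome (log2 change -10.09, SE 0.87, adjusted p = 0.00398, and 0.05 without rhizome 1, just short of a call). The aldehyde dehydrogenase ALDH3F1 (PH02Gene02028) was at 0.751, 0.63 and 0.457 FPKM in rhizome and 250, 205 and 385 FPKM in stem (log2 change -8.87, SE 0.46, adjusted p = 0.00236 and 0.038). Of defence genes, chitinases and pathogenesis-related proteins were called higher for 8 and lower for 6 of 86 tested, and PRMS (PH02Gene48686), their most abundant member, was at 597, 1216 and 208 FPKM against 72.2, 30 and 60.7 FPKM (log2 change 3.62, SE 0.77, adjusted p = 0.0295 and 0.101).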

How the data were processed

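RNA-seq was deposited as a table with an FPKM (scaled by length and library size) and a count per gene and library, per the file headers. The deposited counts are not whole for every gene and are therefore estimates, called expected counts here. The submitters' processing notes name HISAT2, StringTie 1.3.1 and RSEM, with no role or order. A genome build was not given in the sources used here. Expected counts were rounded and tested with edgeR 4.0.16 in R 4.3.3 (TMM normalisation, quasi-likelihood test, group as the only term, 3 libraries against 3), and p-values were Benjamini-Hochberg adjusted over all 25814 tested genes and called below 0.05. Tested genes had at least 1 FPKM in at least 3 of the 6 libraries. Log2 changes are rhizome minus stem, SE is from the quasi-likelihood statistic, and log levels use log2(FPKM + 1). For a group without counts, the fold is a lower bound against 3 counts over that group. Intervals for counting error are not given for single libraries, because replicates were available.

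Alternatives were DESeq2 1.42.0, limma 3.58.1, other normalisations and filters, a replicate term, shared fits with leaf and branch, and each library left out. The comparison, gene lists and tests were chosen with earlier results of these data known. Named genes are, by rule, the largest rises and falls among called, described genes with a mean of at least 10 FPKM in the higher group and no overlap, the largest called rise, largest called fall and most abundant member of each list, the main gene of each backbone step of terpenoid synthesis and the 8 terpene synthases of highest level. Other named genes were chosen after their values were seen: WAXY (PH02Gene13019), HSP70 (PH02Gene35944), SUS2, CIN2 (PH02Gene16855), SPS, SPS5, BAMY2, KIN14I, BUB1, CDKB2-1, HSFA1, PIP2-1, LSI2, NIP1-1, NPF8.3 (PH02Gene02810), EIN2, STPS, ANR (PH02Gene16551), NCED3 (PH02Gene40492), KS1, PRR95, PRR73, the uncalled HMG-CoA reductase genes, the fructose-1,6-bisphosphatase gene and 2 TPS7 genes (PH02Gene31673 and PH02Gene37084). On simulated counts for this comparison (25814 genes, 200 changed), the test recovered 1.47% of 2-fold, 16.7% of 4-fold and 68.2% of 8-fold changes, with 57 calls and 0 false. The simulation changed 200 genes, while 3924 were called in the data. In the data, rhizome 1 was also close to a weighted sum of the other rhizome libraries, and recovery in such a setting was not tested. The recovery rates and the absence of false calls may therefore not carry over to these libraries. The growth stage libraries were not used here.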

Additional observations from a re-analysis of the deposited data

How the results depend on the processing

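The number of called genes, 3924 with 1787 higher and 2137 lower, depended on which libraries were in the fit. Leaving out 1 library gave 109 to 4643 calls, 21 to 2534 higher and 88 to 2446 lower. The lowest values came without rhizome 1, and the share of calls that were higher ranged from 19.3% to 54.6%, compared with 45.5% for all 6 libraries. Deviations of same-numbered rhizome and stem libraries correlated at 0.05, -0.08 and -0.16, and those of differently numbered libraries at -0.09 to 0.15. With 3 libraries a side, such values cannot tell whether replicate numbers pair the samples. A fit with a replicate block called 234 genes, 46 higher and 188 lower. A single fit of all 12 plant part libraries called 8213 (4110 higher, 4103 lower), and the fit of 11 without rhizome 1, added after the data were seen, called 2755 higher. DESeq2 called 6984 (3354 higher, 3630 lower). Counting genes at least 2-fold apart in every pair of libraries, also added later, gave 1830. Lower calls outnumbered higher ones except without rhizome 3, in the fits of 12 and of 11 libraries and after quantile normalisation, and the median log2 change over all genes, 0.02, lay between -0.04 and 0.13. Every gene called with all 6 libraries kept its sign without rhizome 1. The cause of these differences was not tested. With 3 libraries a side, 2-fold and 4-fold changes were mostly missed on simulated data, whose setting differed from these libraries as given above. A gene without a call is not shown to be equal between the organs.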

Other observations

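Genes with "chloroplast" in their description, a group made after the values were seen, extended beyond light harvesting. Of 1743 tested, 347 (19.9%) were called lower and 50 (2.87%) higher, compared with 8.28% and 6.92% of all tested genes, with a median log2 change of -0.40, and 38 of the 109 genes called without rhizome 1 were among them.

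Calls in further lists are given beside the 6.92% higher and 8.28% lower of all tested genes. Of 54 tested genes of iron and metal handling, 1 was called higher and 5 lower. The most abundant was a metallothionein (MT3B, MSTRG.25439), a small metal-binding protein, at 1523, 858 and 1747 FPKM in rhizome and 2864, 1031 and 1487 FPKM in stem, with overlapping organs (log2 change -0.48, SE 0.47, adjusted p = 0.508). Of 40 tested flavonoid genes, 3 were called higher and 6 lower. Anthocyanidin reductase (ANR, PH02Gene32097), which makes flavanols for condensed tannins, was at 67.1, 19.6 and 118 FPKM in rhizome and 9.62, 12.4 and 13.3 FPKM in stem, without overlap (log2 change 2.44, SE 0.57, adjusted p = 0.0381 and 0.126 without rhizome 1). Genes with the symbol ANR were called in both directions. PH02Gene16551, described as a dihydroflavonol-4-reductase, was at 4.41, 3.74 and 5.05 FPKM in rhizome and 71, 68.2 and 40.3 FPKM in stem (log2 change -3.81, SE 0.29, adjusted p = 0.0032 and 0.0424 without rhizome 1). Of 21 tested cuticle and wax genes, 1 was called in each direction, and FDH (PH02Gene05497), a fatty acid elongase of the surface layer, was at 17.8, 46.2 and 0 FPKM in rhizome and 0.954, 15.3 and 21.4 FPKM in stem. Glutathione S-transferases were called higher for 6 and lower for 5 of 49, low oxygen genes for 0 and 2 of 16, histones for 3 and 2 of 47 and clock genes for 2 and 4 of 21.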
